A study of Homo sapiens with 10 samples.

Results

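The KRAB domain is a repression module found at the start of many zinc finger proteins, and the KRAB domain in common use for dCas9 fusions comes from ZNF10 (KOX1). KRAB binds TRIM28 (KAP1), a scaffold that brings in SETDB1, which methylates histone H3 at lysine 9, the HP1 proteins that bind this mark, and the NuRD remodeling complex with CHD3 or CHD4. The 9 genes described here are ZNF10, TRIM28, SETDB1, its partner ATF7IP, the HP1 genes CBX1, CBX3 and CBX5, and CHD3 and CHD4, chosen by name for their roles in this machinery out of 20535 genes listed in each library. All 9 were present in every library and passed the filter on low values, which kept the 10127 genes whose mean TPM was 1 or more. TPM corrects reads for transcript length and scales each library to a fixed total, so levels can be compared between genes.

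RNA-seq was performed in K562, an established human erythroleukemia line, with 5 groups of 2 libraries each. Control cells are labelled with the nontargeting sgGal4, and their labels name no effector. The paper's legend for its RNA-seq comparison instead names nontransduced cells as the reference. The methods describe effector lines given either targeting sgRNAs or sgGal4, so whether the control cells also carried an effector is unknown. The other groups carried sgRNAs against HS2, an enhancer of the β-globin locus, together with 1 of 4 effectors. K stands for dCas9-KRAB and L for dCas9-LSD1, a histone demethylase fusion. The dual systems are enCRISPRi-LK, in which dCas9-LSD1 is joined by MCP-KRAB recruited through the sgRNA, and enCRISPRi-KL, in which dCas9-KRAB is joined by MCP-LSD1. The methods describe dCas9 fusions under doxycycline control, delivered by lentivirus into cells that were then sorted for fluorescent reporters. The paper counts the libraries of a group as experiments, and its statistics section speaks of independent experiments or biological replicates. Neither it nor the labels name separate cultures for these libraries, so p-values measure the spread between these libraries, which may be technical. TPM keeps no record of read number, and the depth behind each value is unknown. The listed TPM values summed to between 790470 and 844414 per library, and 13 mitochondrial genes took 53.6% of this sum in sgGal4 replicate 1 against 39.9% to 46.6% in the other 9 libraries.

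Erythroid genes of the K562 line were read as a check of the cells. Among them HBE1, HBG1 and HBG2 belong to the β-globin locus, whose enhancer HS2 was targeted. In their levels and in the sums below, an effect of the targeting and a change in the cells cannot be told apart. HBE1 ranged from 361 to 1620 TPM, HBG2 from 222 to 941 TPM, HBG1 from 40.6 to 132 TPM and HBZ from 800 to 2712 TPM, the most abundant gene of this list on average. The paper measures HBG1 and HBG2 together, and the split of reads between them was not tested. KLF1 stood between 20.3 and 52.4 TPM and TAL1 between 6.60 and 18.5 TPM. The summed level of the 7 markers was 3501 and 3368 TPM with sgGal4 and 2935 and 2868 TPM under the label K. It was 4464 and 3574 TPM under L, 1843 and 1819 TPM under LK, and 2172 and 2344 TPM under KL. Of the 6 markers tested against sgGal4 with limma, KLF1 was called higher and HBE1 lower in K, HBZ and KLF1 higher in L, HBE1 and HBG2 lower in LK, and in KL HBZ higher and HBE1, HBG1 and HBG2 lower. GATA1, a defining factor of these cells, was listed at 0 in all 10 libraries. Genes that most cells use, such as EHMT2, were also listed at 0 in every library, so a listed 0 does not show absence of the transcript. All 10 libraries gave 0 for 54.2% of the 733 coding genes listed on chromosome X, where GATA1 lies, against 25.9% of 17070 on the autosomes. Single autosomes ranged from 17.8% on chromosome 16 to 39.4% on chromosome 21. Among 4 markers of other blood cells, CD3E and CD79A were listed at 0 throughout and CD14 did not exceed 0.73 TPM. CD3D, a T-cell receptor component, was at 26.1 and 33.6 TPM with sgGal4 and between 1.65 and 21.3 TPM in the other 8 libraries, with no call in any comparison, and its part in the results below was not tested.

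ZNF10 encodes a KRAB zinc finger repressor and lies at chr12:133707161-133736051 on the plus strand (hg19 coordinates). Its KRAB box is shown because this domain is the part of the gene in common use in repressor fusions. The stretch below lies in exon 3 of 5 of transcript ENST00000248211, at chr12:133727617-133727739 on the plus strand, and the capitals mark 5 codons that are a hallmark of the KRAB A box.
ZNF10 KRAB box: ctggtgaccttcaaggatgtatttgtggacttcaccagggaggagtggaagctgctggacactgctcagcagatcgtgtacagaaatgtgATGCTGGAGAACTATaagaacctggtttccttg
No 75-base window of this transcript was shared with a transcript from another locus. The only other annotated gene that held a 30-base window of the stretch was 1 read-through gene that overlaps ZNF10 itself. A gene-level TPM value does not say which part of the gene the reads came from, so transcripts of the chromosomal gene and of a KRAB transgene cannot be told apart.

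ZNF10 was at 0.97 and 1.89 TPM with sgGal4, and the libraries labelled K had 1.18 and 3.80 TPM. The libraries labelled LK had 36.8 and 31.5 TPM, those labelled L had 128 and 136 TPM, and those labelled KL had 365 and 360 TPM. Thus 3 separate levels stood above the pair of low groups, and the sgGal4 and K libraries overlapped. The level was low in the libraries labelled with dCas9-KRAB alone and high in those labelled with dCas9-LSD1 alone. So in these 2 groups it does not follow the constructs that the labels name. LK and KL, whose labels name KRAB, were above sgGal4 and K, but LK was below L, whose label names no KRAB. Which transcripts these reads came from was not tested. The sgGal4 labels name no effector, so the low values there cannot be set against a construct. Each group is therefore named as the libraries labelled that way (K, L, LK, KL for short), and every direction given below rests on those labels. KDM1A, which encodes LSD1, was at 105 and 84.2 TPM in L against 29.2 and 27.7 TPM in K, the way these labels run. In LK and KL, whose labels also name LSD1, it overlapped with sgGal4. In separate ChIP-seq the paper reports more H3K9me3, a repressive histone mark, at HS2 with dCas9-KRAB but not with dCas9-LSD1. Whether labels were exchanged was not tested.

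**Figure D1:**
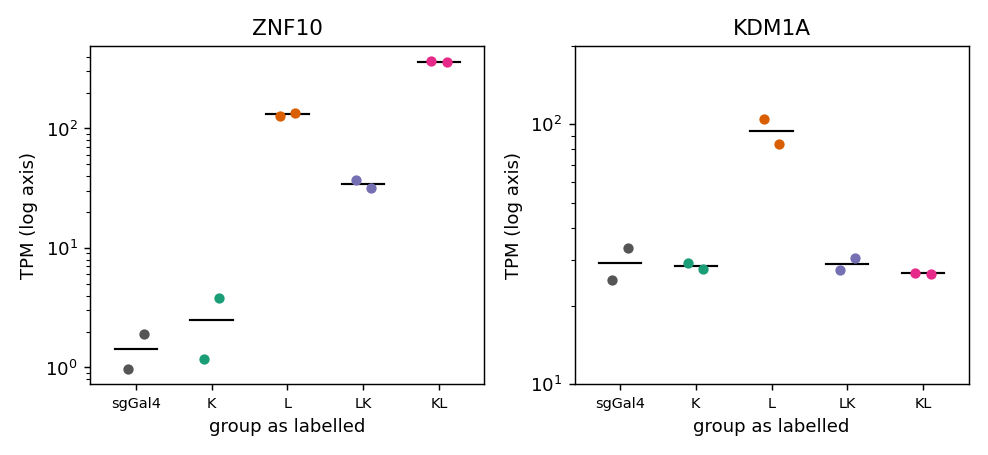
TPM of ZNF10 (left) and KDM1A (right) on log axes in the 10 libraries, with groups as labelled on the x axis, 1 point per library and the group mean as a line. ZNF10 runs from 0.97 TPM in an sgGal4 library to 365 TPM in a library labelled KL, and KDM1A stands apart at 84.2 and 105 TPM in the libraries labelled L.

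As group means, ZNF10 was at 1.43 ± 0.651 TPM (SD, n = 2) with sgGal4, 2.49 ± 1.85 TPM in K, 34.2 ± 3.79 TPM in LK, 132 ± 5.20 TPM in L and 362 ± 3.60 TPM in KL. Relative to sgGal4 these means are 23.9 times as high in LK, 92.3 times in L and 253 times in KL. On the log2(TPM + 1) scale, where folds of weakly expressed genes come out too small, ZNF10 rose by 3.88 in LK (95% CI 3.17 to 4.58, adjusted p = 2.75e-05, limma), by 5.80 in L (95% CI 5.10 to 6.50, adjusted p = 5.33e-07) and by 7.25 in KL (95% CI 6.55 to 7.95, adjusted p = 2.55e-08). Each of these calls was also made under all 18 alternative settings. A filter at 10 TPM is among them, which ZNF10 passed only through its levels in L, LK and KL. In the libraries labelled K the difference from sgGal4 was 0.44 (95% CI -0.27 to 1.14, adjusted p = 0.566). With 1 library left out it ranged from -0.13, without K replicate 2, to 1.01. In bulk RNA, more transcript per cell and more cells with the transcript cannot be told apart.

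ZNF10 was the only one of the 9 genes past the threshold (adjusted p under 0.05) in the comparisons of L, LK and KL with sgGal4, and none passed for K. Over all genes tested, 1.62% were called for K, 0.869% for L, 2.00% for LK and 1.36% for KL. At an unadjusted p under 0.05, none of the 9 genes passed for K, 2 for L (ZNF10 and SETDB1), 2 for LK (ZNF10 and CBX1) and 1 for KL. Over all genes tested, 1580, 1296, 1439 and 1492 of 10127 did so. Without sgGal4 replicate 2, ZNF10 and SETDB1 were called for L, in a fit that called 1.36% of all genes. A test over the 5 groups together called 1.82% of genes, among them ZNF10 (adjusted p = 4.39e-08) and no other of the 9. The mean of the 4 HS2-targeted groups differed from sgGal4 by 4.34 for ZNF10 (95% CI 3.78 to 4.90, adjusted p = 1.11e-06), again the only one of the 9 called, against 3.26% of all genes. Here too SETDB1 was called beside ZNF10 without sgGal4 replicate 2 (adjusted p = 0.0498), with 2.71% of all genes called in that fit.

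The order of the ZNF10 levels was sgGal4, K, LK, L and KL, from low to high. LK stood above K by 3.44 on the log2 scale (95% CI 2.73 to 4.14, adjusted p = 0.000508), in a comparison with 0.00987% of genes called, of which ZNF10 was the single gene. This call was lost with no filter on low values (adjusted p = 0.0534) and without the mean-variance trend (adjusted p = 0.0652), and over its alternatives the adjusted p ranged from 7.07e-05 to 0.0652. L stood above LK, with LK minus L at -1.92 (95% CI -2.63 to -1.22, adjusted p = 0.0376) and 0.118% of genes called. That call was lost without either replicate of L, LK or KL. It was also lost with a pseudocount of 0.1 (adjusted p in limma = 0.182), no filter (0.241), size factors (0.0509), quantile normalization (0.0532) and no trend (0.161). The call held in 7 of 18 alternatives. KL minus L was 1.45 (95% CI 0.75 to 2.15, adjusted p = 0.11), with 0.276% of genes called and none of the 9 among them in limma, where ZNF10 alone had an unadjusted p under 0.05. So these neighbors did not differ past the threshold although their libraries did not overlap. Without either replicate of K the adjusted p was 0.027 or 0.0314, in a fit of only these groups it was 0.00427, and over its alternatives it ranged from 0.00427 to 0.419. Groups further apart in this order were all called, with KL minus K at 6.81 (adjusted p = 6e-08, 0.168% of genes called) and L minus K at 5.36 (adjusted p = 1.54e-06, 0.0395% of genes called).

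The 2 arrangements of the same effectors were compared next. KL was higher than LK by 3.37 on the log2 scale for ZNF10 (95% CI 2.67 to 4.08, adjusted p = 0.000321), and both KL libraries were above both LK libraries. None of the other 8 genes was called by limma or had an unadjusted p under 0.05, against 0.385% of all genes called and 996 of 10127 with an unadjusted p under 0.05. Between dual (LK and KL) and single (K and L) effectors the ZNF10 difference was 2.44 (95% CI 1.95 to 2.94, adjusted p = 0.000237), with 0.0889% of genes called. Its levels overlapped between these arms, since the L libraries were above the LK libraries. For the groups labelled with a KRAB effector (K, LK and KL) against L and sgGal4, the difference was 0.96 (95% CI 0.50 to 1.41, adjusted p = 0.0488), with 0.997% of genes called. Leaving out either replicate of L, LK or KL, sgGal4 replicate 1 or K replicate 2 ended this call. It also ended with a pseudocount of 0.1, no filter, size factors, quantile normalization and no trend (adjusted p in limma = 0.0608 to 0.174). The call held in 4 of 17 alternatives, and the levels overlapped between these arms too.

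KDM1A encodes LSD1, the other effector, and lies on chromosome 1. It was at 25.2 and 33.5 TPM with sgGal4, 29.2 and 27.7 TPM in K, 105 and 84.2 TPM in L, 27.4 and 30.6 TPM in LK, and 26.8 and 26.6 TPM in KL. Only the libraries labelled L were above sgGal4, although the labels of LK and KL also name LSD1. The difference of L from sgGal4 was 1.66 on the log2 scale (95% CI 1.18 to 2.14, adjusted p = 0.00256), and it missed the threshold without L replicate 1 (adjusted p = 0.0622). Without single libraries the estimate lay between 1.46 and 1.86, and over its alternatives the adjusted p ranged from 0.000967 to 0.0622.

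TRIM28, the scaffold that KRAB binds, lies at chr19:59055431-59062089 and was the most abundant of the 9 genes on average over the libraries. It was at 186 and 197 TPM with sgGal4, 251 and 234 TPM in K, 204 and 236 TPM in L, 286 and 199 TPM in LK, and 279 and 190 TPM in KL. The K, L and LK libraries were above both sgGal4 libraries, while 1 KL library was between them, and the replicates of LK and KL differed by more than the group means did. The log2 differences from sgGal4 were 0.34 in K (95% CI -0.09 to 0.76), 0.19 in L (95% CI -0.23 to 0.62), 0.31 in LK (95% CI -0.11 to 0.74) and 0.27 in KL (95% CI -0.16 to 0.69), with adjusted p between 0.442 and 0.751. Without KL replicate 1 the difference in KL was -0.0091. Leaving out 1 library at a time gave 0.088 to 0.298 in L and 0.0547 to 0.574 in LK. ZNF10 was at 0.0047 to 0.0162 times the TPM of TRIM28 in the sgGal4 and K libraries, 0.129 and 0.158 times in LK, 0.63 and 0.576 times in L, and 1.31 and 1.89 times in KL. These ratios take the reads to be spread over the whole ZNF10 transcript, which was not tested.

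SETDB1 encodes the methyltransferase that TRIM28 brings to its targets. Its level was 16.1 and 33.9 TPM with sgGal4, 25.0 and 23.1 TPM in K, 46.5 and 39.4 TPM in L, 28.3 and 30.9 TPM in LK, and 32.6 and 33.4 TPM in KL. Both L libraries were above all 8 others, and the sgGal4 replicates lay far apart, with the lower value in the library that also had the highest mitochondrial share. The difference of L from sgGal4 was 0.84 (95% CI 0.22 to 1.47, adjusted p = 0.218), and it depended on the sgGal4 library kept. It was 0.33 without sgGal4 replicate 1 (adjusted p = 0.671) and 1.36 without sgGal4 replicate 2 (adjusted p = 0.0285), the lowest and highest estimates over its alternatives. ATF7IP, which stabilizes SETDB1, ranged from 8.24 to 21.6 TPM, with 21.6 and 8.36 TPM in the replicates of L, and its differences from sgGal4 lay between -0.41 in LK and 0.28 in K (adjusted p between 0.702 and 0.995), with signs in L and KL that turned when 1 library was left out.

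**Figure D2:**
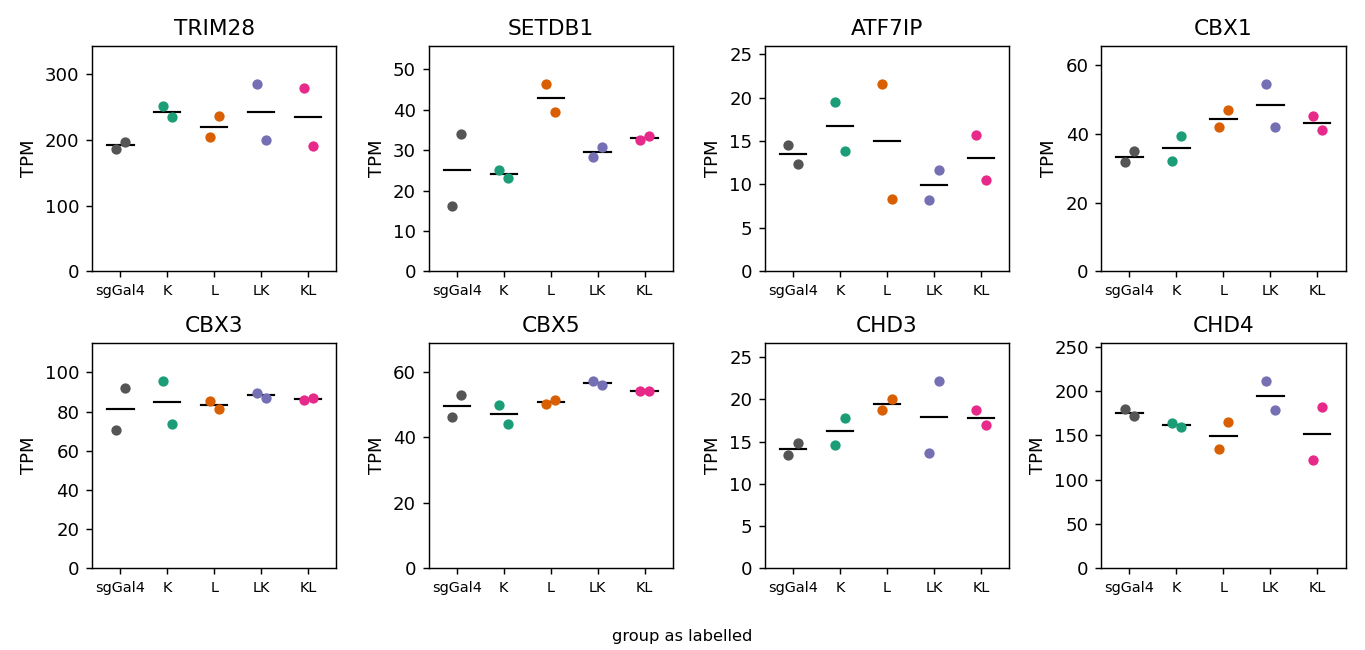
TPM of the other 8 genes in the 10 libraries, with groups as labelled on the x axis, 1 point per library, the group mean as a line and each y axis from 0. CBX5 spans only 44.2 to 57.3 TPM, whereas SETDB1 runs from 16.1 to 46.5 TPM.

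The HP1 proteins bind methylated lysine 9 of histone H3. CBX3 (HP1γ) was the most abundant at 70.6 to 95.8 TPM, CBX5 (HP1α) was at 44.2 to 57.3 TPM and CBX1 (HP1β) at 31.9 to 54.6 TPM. CBX3 made up 44.4% to 53.9% of the summed TPM of these genes, CBX5 28.0% to 31.0% and CBX1 18.1% to 27.1%, and this order held in all libraries. CBX1 was at 31.9 and 34.9 TPM with sgGal4, 32.2 and 39.5 TPM in K, 41.9 and 46.9 TPM in L, 54.6 and 41.9 TPM in LK, and 45.2 and 41.0 TPM in KL. The L, LK and KL libraries were thus above both sgGal4 libraries for CBX1, with log2 differences of 0.40 (95% CI -0.07 to 0.87, adjusted p = 0.475), 0.51 (95% CI 0.04 to 0.98, adjusted p = 0.307) and 0.36 (95% CI -0.11 to 0.83, adjusted p = 0.491). For CBX3 and CBX5 the differences from sgGal4 lay between -0.07 and 0.19 in the 4 groups, and the signs of several turned when 1 library was left out. Of the 75-base windows of the CBX3 transcript 5.39% were shared with a pseudogene copy, as were 0.712% of those of CBX1. Only uniquely placed reads were kept, and which reads of these genes were dropped was not tested.

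CHD3 and CHD4 are the ATPases of NuRD. CHD4 was at 180 and 172 TPM with sgGal4, 164 and 160 TPM in K, 135 and 165 TPM in L, 212 and 178 TPM in LK, and 123 and 182 TPM in KL. K and L libraries were below both sgGal4 libraries, and the replicates of KL lay far apart. The log2 differences from sgGal4 ran from -0.24 in L to 0.14 in LK (adjusted p between 0.636 and 0.813), and for LK the sign turned under quantile normalization. In KL the CHD4 difference turned to 0.0476 without KL replicate 1. CHD3 ranged from 13.4 to 22.2 TPM, and its differences from sgGal4 lay between 0.19 and 0.44 (adjusted p between 0.575 and 0.807), with -0.0456 in LK without LK replicate 2. CHD4 made up 86.8% to 94.0% of the summed TPM of the pair.

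**Figure D3:**
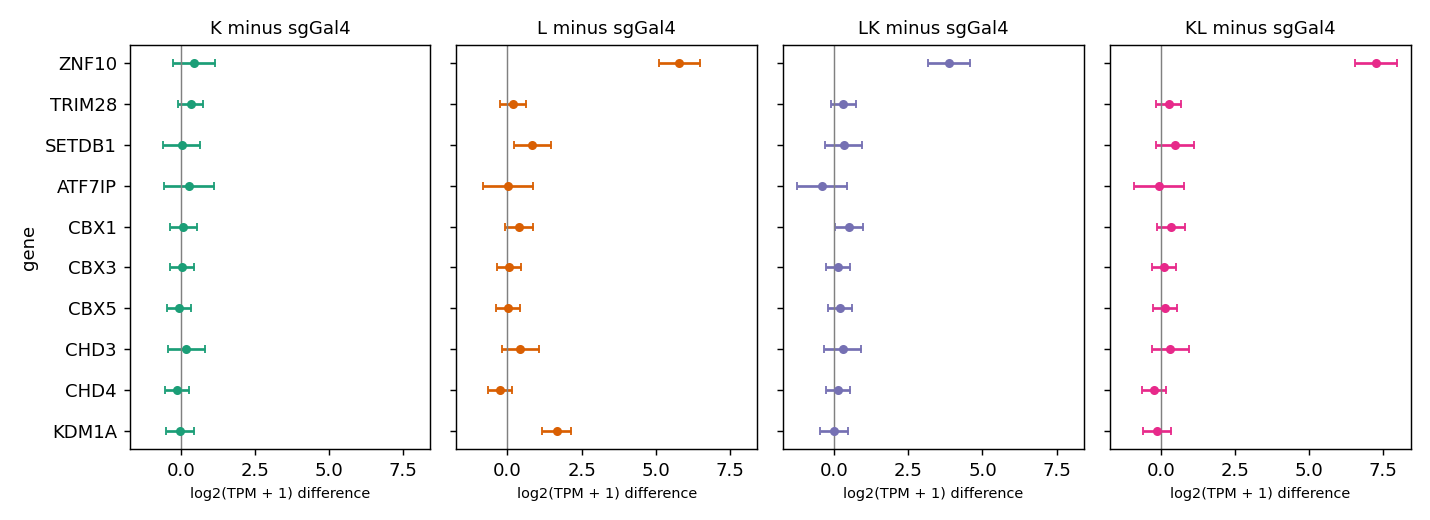
Differences from sgGal4 on the log2(TPM + 1) scale for the 9 genes and KDM1A, 1 panel per group as labelled, with points for limma estimates and bars for 95% confidence intervals. ZNF10 stands at 5.80 in L, 3.88 in LK and 7.25 in KL, KDM1A at 1.66 in L, and the intervals of most other genes include 0.

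Over the 9 genes the median log2 difference from sgGal4 was 0.09 in K, 0.19 in L, 0.29 in LK and 0.27 in KL. The same medians over all genes tested were 0.06, 0.00497, 0.03 and 0.05. Values above 0 were found for 7 of the 9 genes in K, 8 in L, 8 in LK and 7 in KL, and for 5530, 5126, 5328 and 5537 of the 10127 genes tested. These comparisons share the sgGal4 libraries. Without sgGal4 replicate 1, the library with the highest mitochondrial share, the counts were 5, 6, 6 and 6 of the 9 genes and 4367, 3934, 4171 and 4292 of all genes tested. The medians without this library were 0.03, 0.15, 0.18 and 0.05 over the 9 genes. Over all genes tested they were -0.09, -0.13, -0.11 and -0.09. SETDB1 and CBX3 then fell below 0 in K, LK and KL, and CBX3 and CBX5 in L, while ATF7IP turned to above 0 in KL. Under size factors SETDB1 and CBX3 fell below 0 in K, and under quantile normalization CHD4 did so in LK.

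The genes around ZNF10 on chromosome 12 were read beside it. ZNF891, the nearest upstream, ranged from 0.57 to 1.66 TPM, and ZNF268, the nearest downstream, from 3.73 to 8.82 TPM. ZNF140 did not exceed 1.81 TPM, ZNF84 3.36 TPM, ZNF26 1.53 TPM and ZNF605 0.23 TPM, and each of these 4 was listed at 0 in at least 1 library. ZNF268 was at 4.70 and 8.75 TPM with sgGal4 and at 8.82 and 4.46 TPM in the libraries labelled KL, where ZNF10 was highest. Of the 6 neighbors 2 were tested, ZNF891 and ZNF268, and neither was called in any comparison or passed an unadjusted p under 0.05 with limma.

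**Figure D4:**
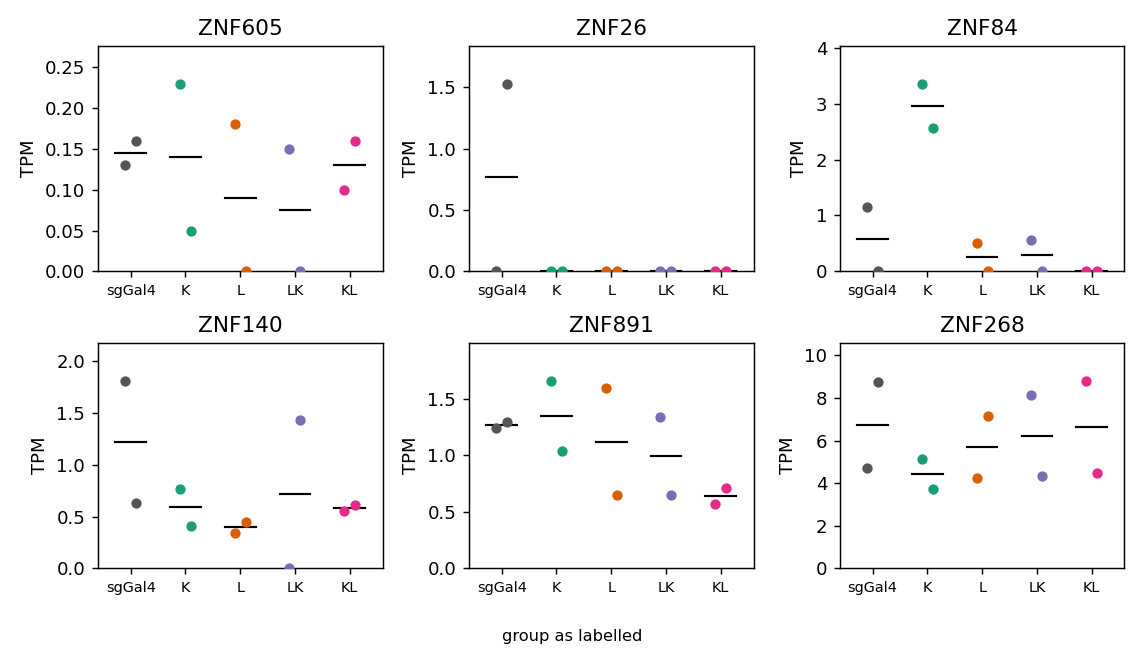
TPM of the 6 zinc finger genes next to ZNF10 in the 10 libraries, with groups as labelled on the x axis, 1 point per library, the group mean as a line and each y axis from 0. None exceeds 8.82 TPM in any library.

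Other genes of the pathway were followed by lists, and limma called none of their members in any of the 4 comparisons with sgGal4. Among H3K9 methyltransferases and demethylases 6 of 8 genes were tested, with SUV39H1 and EHMT2 listed at 0 in all libraries. Unadjusted p fell under 0.05 for 1 of these 6 genes in K, 1 in L, 0 in LK and 1 in KL. Of the NuRD genes 10 of 12 were tested, MTA1 being listed at 0 throughout and CHD5 not exceeding 0.12 TPM, and 0, 1, 2 and 2 of them had an unadjusted p under 0.05 in K, L, LK and KL. For the 5 HUSH and SETDB1 partners, which act in silencing of integrated sequences, these counts were 2, 1, 2 and 2. The 5 HP1 partners gave 1, 0, 0 and 1, the 4 SUMO pathway genes 0, 0, 0 and 2, the 3 tested DNA methylation partners 0, 1, 0 and 0, and the 3 relatives of TRIM28 gave 0 in each. The counts over all genes tested are given above.

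In 4 genes of these lists both sgGal4 libraries lay outside the range of the other 8, which was noticed after the values were seen. FAM208A (TASOR), a HUSH subunit, was at 37.9 and 37.7 TPM with sgGal4 and between 12.6 and 29.9 TPM in the other libraries. LBR, a nuclear envelope receptor that binds HP1, was at 49.9 and 52.5 TPM against 26.5 to 46.4 TPM, and RBBP7 of NuRD at 153 and 166 TPM against 101 to 149 TPM. GATAD2A, also of NuRD, went the other way, with 116 and 138 TPM against 151 to 215 TPM. No comparison called any of the 4 in limma. Of all genes tested 11.8% lay apart in this way, 661 of them higher and 536 lower in the other 8 libraries.

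The genes most like ZNF10 by Pearson correlation of log2(TPM + 1) over the 10 libraries were AGTRAP (r = 0.959), TNNT1 (r = 0.947), MDP1 (r = 0.923), ASRGL1 (r = 0.923) and DRAM1 (r = 0.920). The libraries are 2 replicates of each of 5 groups, and these values describe them without a test. AGTRAP was at 22.2 ± 2.97 TPM (SD, n = 2) with sgGal4, 22.3 ± 0.0990 TPM in K, 27.3 ± 2.25 TPM in LK, 33.3 ± 1.40 TPM in L and 34.8 ± 2.38 TPM in KL. TNNT1 went from 36.5 ± 2.04 TPM with sgGal4 to 70.7 ± 3.65 TPM in KL. The group order of ZNF10 was not shared by all 5, since the mean of ASRGL1 was lower in K (7.54 TPM) than with sgGal4 (8.02 TPM) and that of DRAM1 lower in KL (4.14 TPM) than in L (4.465 TPM), and the L and KL libraries of AGTRAP overlapped. For TRIM28 the most similar genes were MAP3K1 (r = 0.941), FAM96A (r = 0.931) and SLC20A2 (r = 0.926).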

How the data were processed

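Reads were aligned by the authors to hg19 with STAR 2.5.2b, only those placed at 1 location were used, and RSEM gave the deposited TPM value of each gene and library. The annotation is not given in the sources used here. The labels name poly(A) selection with a directional kit, whereas the methods name another kit. The labels gave the group and the replicate number of each library.

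The 10127 genes that averaged 1 TPM or more were taken to the log2(TPM + 1) scale and fitted in limma 3.58.1 (R 4.3.3) with all 10 libraries, which left 5 residual degrees of freedom, letting the prior variance follow the mean. P-values were adjusted by Benjamini-Hochberg over all genes tested, separately per comparison. The threshold was an adjusted p under 0.05. The step was tested on simulated data. DESeq2, named in the methods, takes counts and was not used. Members and lists were chosen with earlier results of these data known. The genes to be named were the 9 members, KDM1A, the ZNF10 neighbors, the most correlated genes, and up to 3 called genes per list whose libraries do not overlap with sgGal4. No pathway list held such a gene, and FAM208A, LBR, RBBP7 and GATAD2A were named after their values were seen. A list of all KRAB zinc finger genes was to come from a protein table and was not made. UHRF1 was not analysed here, and 2 of the chosen marker genes are not reported here and are left out of the marker counts and sums, so the check of the cells lacks them. Coordinates come from GENCODE release 44 mapped to GRCh37. Alternatives were a pseudocount of 0.1, no filter or one at 10 TPM, size factors, quantile normalization, no trend, only the groups compared, a replicate block and leaving out each library. Plots were drawn in Python 3.11.15 with matplotlib 3.10.9.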

Additional observations from a re-analysis of the deposited data

How the results depend on the processing

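The higher ZNF10 in L, LK and KL against sgGal4, in KL against LK, in L and KL against K, in dual against single effectors and in the mean of the 4 HS2-targeted groups against sgGal4 was called under every alternative run. With a replicate block or a filter at 10 TPM, none of the 87 results changed direction or side of the threshold, and no count of genes called moved by over 1.5 times. ZNF10 averaged 1.43 TPM with sgGal4 and 2.49 TPM in K, and passed the filter at 10 TPM only through L, LK and KL. That setting therefore gives no separate support for its calls. The replicate numbers share no pairing in the data, since deviations of libraries with the same number correlated between -0.0213 and 0.0229, and with the replicate block 119 genes were called for K, 69 for L, 151 for LK and 127 for KL against sgGal4. The causes of the changes below were not tested. TPM keeps no depth, so what depth limits could not be computed.

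ZNF10 in LK minus L lost its call with a pseudocount of 0.1 (-1.95), with no filter (-1.92), with size factors (-1.96), with quantile normalization (-1.98) and without the trend (-1.92), leaving 0 of the 9 genes called in each. ZNF10 in the KRAB-labelled groups minus the others lost its call under the same settings, at 1.12, 0.96, 0.93, 0.93 and 0.96, again with 0 of the 9 genes called. LK minus K lost it with no filter and without the trend, both at 3.44 with 0 of the 9 genes called. KL minus L was called in a fit of only these groups, at 1.45 with 1 of the 9 genes called. Below 0 instead of above, and uncalled, were SETDB1 (-0.0235) and CBX3 (-0.0040) in K minus sgGal4 with size factors, and CHD4 (-0.0118) in LK minus sgGal4 with quantile normalization.

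Counts of genes called moved by over 1.5 times as follows. With a pseudocount of 0.1 there were 15 for KL minus L and 5 for dual minus single. With no filter there were 51 for K, 37 for L, 61 for LK and 83 for KL against sgGal4, 20 for KL minus LK, 2 for L minus K, 2 for LK minus K, 29 for KL minus K, 6 for LK minus L, 15 for KL minus L, 4 for dual minus single, 25 for the KRAB-labelled groups, 185 for the mean of the HS2-targeted groups and 58 for the 5 groups together. Quantile normalization gave 151 for L minus sgGal4, 7 for L minus K and 15 for dual minus single. Without the trend there were 14 for K, 22 for L, 15 for LK and 75 for KL against sgGal4, 17 for KL minus LK, 1 for L minus K, 0 for LK minus K in limma, 2 for LK minus L, 18 for KL minus L, 4 for dual minus single, 15 for the KRAB-labelled groups, 99 for the mean of the HS2-targeted groups and 39 for the 5 groups together. In fits of only the groups compared there were 59 for K, 25 for L, 57 for LK and 66 for KL against sgGal4, 23 for KL minus LK, 2 for LK minus K, 6 for LK minus L and 13 for KL minus L.

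Each library was also left out in turn, with the lone library of its group assumed to vary like the other groups. Genes called ranged from 9 to 231 for K, 16 to 138 for L, 20 to 209 for LK and 49 to 167 for KL against sgGal4, 3 to 39 for KL minus LK, 2 to 5 for L minus K, 4 to 30 for KL minus K, 2 to 13 for LK minus L, 2 to 26 for KL minus L, 3 to 15 for dual minus single, 33 to 188 for the KRAB-labelled groups, 90 to 274 for the mean of the HS2-targeted groups and 69 to 167 for the 5 groups together. Of the 9 genes, 1 to 2 were called for L minus sgGal4 and for the mean of the HS2-targeted groups, and 0 to 1 for LK minus L, KL minus L and the KRAB-labelled groups. ZNF10 ranged from -0.13 to 1.01 in K minus sgGal4, -2.03 to -1.81 in LK minus L, 1.41 to 1.49 in KL minus L and 0.77 to 1.15 in the KRAB-labelled groups. Uncalled differences from sgGal4 that changed sign were, in K, SETDB1 (-0.48 to 0.55), CBX1 (-0.0499 to 0.24), CBX3 (-0.13 to 0.25), CBX5 (-0.17 to 0.0247) and KDM1A (-0.23 to 0.17). In L these were ATF7IP (-0.62 to 0.65), CBX3 (-0.14 to 0.24) and CBX5 (-0.0595 to 0.13), and in LK SETDB1 (-0.19 to 0.84), CBX3 (-0.0618 to 0.32), CHD3 (-0.0456 to 0.62) and KDM1A (-0.20 to 0.19). In KL they were TRIM28 (-0.0091 to 0.54), SETDB1 (-0.0378 to 0.99), ATF7IP (-0.33 to 0.21), CBX3 (-0.0911 to 0.29), CHD4 (-0.52 to 0.0476) and KDM1A (-0.32 to 0.0798).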
